A study of Mus musculus with 6 samples.

Results

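The genes described here are 39 genes of fatty acid uptake, lipolysis and mitochondrial beta-oxidation, grouped by step. Picking was by symbol, for the genes' roles in the pathway, and with earlier results of these data known. They were read from a table of 43346 genes, and all 39 were among the 15583 genes that passed the low-count filter. RNA came from the gastrocnemius, the large mixed-fibre muscle of the calf, of 6-month-old male mice. All 6 libraries came from Vdrfl/fl.actin iCre animals, with loxP sites on both sides of exon 3 of Vdr, the gene of the vitamin D receptor, and with a tamoxifen-inducible Cre transgene (Tg(ACTA1-cre/Esr1*)2Kesr) that the skeletal actin promoter drives, so that recombination is directed to muscle fibres and not to the other cells of the tissue. The knockout group was 3 libraries from mice given tamoxifen at 100 mg/kg for 5 days, and the control group was 3 libraries from mice of the same genotype given the vehicle, corn oil with 10% ethanol. Both groups ate 1 diet, with vitamin D3 at 3.4 IU/g and 0.81% calcium. The labels also describe mice without Cre that received tamoxifen, but the series holds only the 6 libraries above and none from those mice. Muscle was taken once glucose and strength tests, held 10 days past the last injection, were over. Because both groups carry Cre and only one received tamoxifen, Vdr deletion, Cre activity and the drug cannot be told apart.

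Long-chain fatty acids reach a muscle fibre from circulating triglyceride, which lipoprotein lipase cleaves at the capillary wall, or from the fibre's own lipid droplets. They are activated to acyl-CoA, carried into mitochondria as carnitine esters and shortened by repeated rounds of dehydrogenation, hydration, oxidation and thiolysis, with electrons passing through the electron transfer flavoprotein to ubiquinone. Slow-twitch and other oxidative fibres hold more of this machinery than fast glycolytic fibres, and PPAR nuclear receptors with the coactivator PGC-1alpha are known regulators of many of its genes.

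The libraries held 30486874 to 39909535 counted reads. Transcripts that define skeletal muscle were abundant in every library: creatine kinase (Ckm) stood at 10979 to 20430.3 CPM (counts relative to library size, with TMM scaling) and skeletal actin (Acta1) at 19617 to 24159 CPM. Vdr itself had 27 to 52 reads in knockout and 46 to 61 in vehicle libraries. Its log2 fold change of knockout over vehicle, called the estimate from here on, was -0.37 (SE 0.37; edgeR adjusted p = 0.848), and a count over the whole gene barely checks a deletion of 1 exon. Knockout replicate 2 stood apart, with 15.1% of its reads in its 10 most abundant genes against 20.8% to 25.2% elsewhere and the highest level of slow-twitch transcripts. Replicate numbers are only names, and no library of one group is matched to a library of the other. The labels do not state that each library is a separate animal, so p-values measure the spread between these samples.

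The fatty acid genes mostly had higher values in the knockout group, but none passed the test. Of the 39, 35 had an estimate above 0, against 52.9% of all genes tested, and their median was 0.44 against 0.02 over all genes. At an adjusted p below 0.05 (edgeR quasi-likelihood test, Benjamini-Hochberg over all genes tested), 0 of 39 were called, where the background is 0% of all genes, and the smallest adjusted p of a member was 0.611. DESeq2 also called 0 of 39, against 0.699% of all genes. At an unadjusted p below 0.05 there were 9 members, all higher in knockout, against 4.02% of all genes higher and 3.42% lower. The 9 were Acads, Lipe, Cd36, Ppara, Acsl1, Plin5, Acot2, Slc27a1 and Lpl. In 5 members (Acsl1, Lipe, Acads, Eci2 and Acot2) every knockout library lay above every vehicle library, where 5.83% of all genes did so, and in 0 members every knockout library lay below, where 6.48% did. The number at an unadjusted p below 0.05 was 2 without knockout replicate 2, where 4.63% of all genes were. It was also 2 without vehicle replicate 2, where 4.67% of all genes were, so both counts are near the background. Without vehicle replicate 3 it was 3, against 3.69% of all genes. Without vehicle replicate 1 it was 20, of which 19 were higher in knockout, against 9.31% of all genes. The median was 0.24 without knockout replicate 2. Without that library the estimates of 31 of the 39 genes were over 1.5 times smaller in size. Slow-twitch fibre markers moved with these genes. With the mean of those markers as a covariate, 20 of 39 estimates were above 0, where 51.0% of all genes were, and the median was 8.52e-05. In that fit 0 of the 39 were at an unadjusted p below 0.05, against 1.75% of all genes, so this count is near the background. The part of fibre content was not tested.

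The library-by-library pattern was shared by most of the pathway. Knockout replicate 2 was the highest library in 33 of 39 genes, where it was highest in 27.6% of all genes tested. Vehicle replicate 2 was the lowest in 27 of 39, against 14.9% of all genes. Vehicle replicate 1 exceeded both other vehicle libraries in 33 genes, a count for which no share over all genes was computed. It exceeded both knockout replicates 1 and 3 in 20 genes, where 31.0% of all genes did so. Knockout replicates 1 and 3 both exceeded vehicle replicates 2 and 3 in 30 genes, against 19.8% of all genes. Between the highest and lowest library the 39 genes differed by 1.21-fold (Crat) to 5.69-fold (Plin5), with a median of 2.25-fold.

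**Figure D1:**
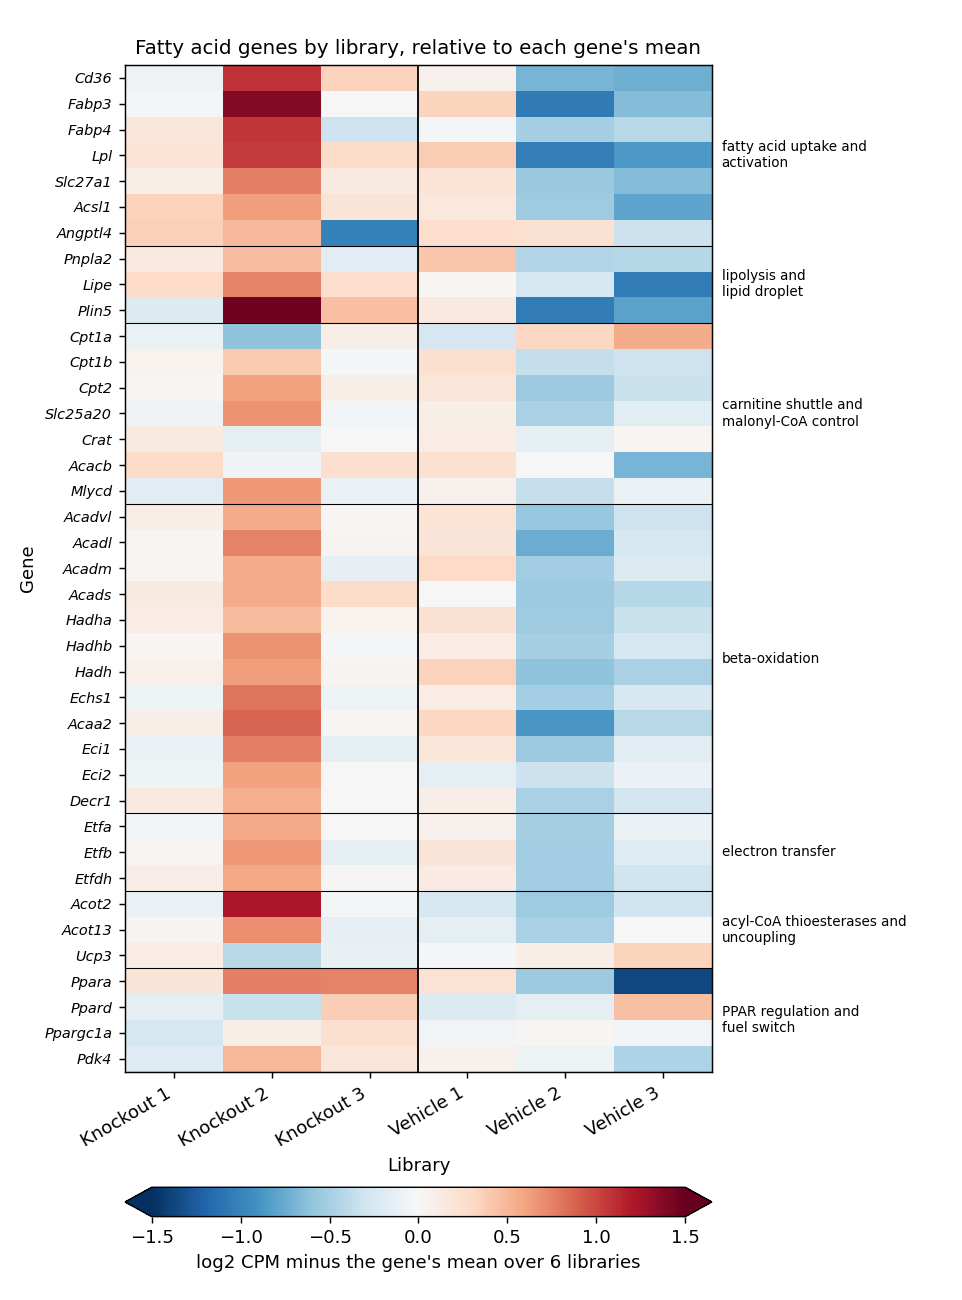
Level of each fatty acid gene in each library, as log2 CPM minus the gene's own mean over the 6 libraries, with genes grouped by step (rows) and 1 library per column; the vertical line parts knockout from vehicle. Knockout replicate 2 is the reddest column in 33 of 39 rows and vehicle replicate 2 the bluest in 27, while Cpt1a, Ucp3 and Ppard run the other way.

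Levels between genes were compared per length, as FPKM. The mean over the 6 libraries ranged from 0.797 FPKM for Angptl4 to 867 FPKM for Fabp3, with a median of 49.1. Above 100 FPKM were 14 genes. After Fabp3 came the electron transfer subunit Etfb at 233 FPKM, the pyruvate dehydrogenase kinase Pdk4 at 226 and the very-long-chain dehydrogenase Acadvl at 209. The 7 genes below 10 FPKM were Angptl4, Ppard, Lipe, Cpt1a, Ppara, Acot2 and Ppargc1a, so the 3 transcription regulators Ppara, Ppard and Ppargc1a and the hormone-sensitive lipase Lipe were among the least abundant transcripts of the pathway.

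Short stretches upstream of 4 members are shown because, of the promoter windows of the pathway, they carry the nearest matches that lie before a start of transcription to the sequence that PPAR and retinoid receptor pairs are known to bind, a direct repeat of AGGTCA with 1 base between the copies (AGGTCANAGGTCA). Capitals mark the 13 bases aligned to the repeat, on whichever strand matched, and each differs from it at 2 bases. Slc25a20 has a match as near, but after its start, and is not shown.
Cd36, chr5:17835937-17835996, minus strand: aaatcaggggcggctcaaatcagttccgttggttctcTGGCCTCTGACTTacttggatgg
Echs1, chr7:140116482-140116541, minus strand: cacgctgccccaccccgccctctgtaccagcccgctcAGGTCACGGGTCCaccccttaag
Etfa, chr9:55512298-55512357, minus strand: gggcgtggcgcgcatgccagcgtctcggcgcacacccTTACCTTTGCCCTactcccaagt
Ucp3, chr7:100472903-100472962, plus strand: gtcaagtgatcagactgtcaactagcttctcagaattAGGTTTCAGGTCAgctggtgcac
The sequences are from RefSeq on GRCm38.p6, the assembly also called mm10, and the matches begin 63, 83, 77 and 51 bases before the annotated start of transcription, respectively. For 31 of the 39 genes a window was at hand, 36 windows in all, each from 250 bases before to 50 bases after a start. A repeat with up to 3 mismatches, on either strand, was in 14 of the 36 windows (38.9%), against 24.6% of all 32851 windows. A single exact AGGTCA on either strand was in 9 of 36 (25.0%), against 16.3% of all windows; that copy is part of the repeat, so the counts overlap. The 4 genes did not share a pattern: Cd36, Echs1 and Etfa had higher estimates in knockout and were highest in knockout replicate 2, whereas Ucp3 had a lower estimate and was lowest in that library.

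The genes of fatty acid uptake and activation, counting the lipoprotein lipase inhibitor Angptl4, had a median estimate of 0.73. The beta-oxidation enzymes had a median of 0.45, a contrast that was not tested. All 7 were above 0, Angptl4 by only 0.01. At an unadjusted p below 0.05 were 4, where 4.02% of all genes were higher at that limit. Cd36 (ENSMUSG00000002944, chromosome 5, 17781690 to 17888959 in mm10) encodes the membrane fatty acid translocase. Its 3 knockout libraries, here and hereafter in the order of replicates 1, 2 and 3, read 329, 736 and 439 CPM, and its 3 vehicle libraries 361, 213 and 209 CPM. Vehicle replicate 1 lay above knockout replicate 1, so the groups overlapped. The estimate was 0.94 (SE 0.34; edgeR adjusted p = 0.636), and 0.56 without knockout replicate 2. Lpl, the lipoprotein lipase, read 956, 1720.1 and 1007 CPM in knockout and 1079, 405 and 457 CPM in vehicle libraries. Here too vehicle replicate 1 was among the high libraries, above knockout replicates 1 and 3. Its estimate was 0.92 (SE 0.41; adjusted p = 0.667).

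Acsl1, which activates long-chain fatty acids to acyl-CoA, was the one uptake gene whose groups did not overlap. It read 436, 529 and 392 CPM in knockout and 384, 236 and 198 CPM in vehicle libraries, means of 452 ± 69.8 and 272 ± 98.1 CPM (SD, n = 3 each). The gap between the lowest knockout and highest vehicle library was small beside the spread among the vehicle libraries. The estimate was 0.73 (SE 0.27; edgeR adjusted p = 0.643). Slc27a1, the fatty acid transport protein FATP1, read 62.7, 98.5 and 64.3 CPM in knockout and 67.4, 39.7 and 37.1 CPM in vehicle, for an estimate of 0.64 (SE 0.27). Its vehicle replicate 1 again exceeded 2 of the knockout libraries.

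Fabp3, the heart and muscle fatty acid binding protein and the most abundant member, ranged widely within both groups. It read 588, 1544 and 598 CPM in knockout and 751, 285 and 378 CPM in vehicle libraries. The estimate of 0.95 (SE 0.47; edgeR adjusted p = 0.695) became 0.33 without knockout replicate 2. Fabp4, the binding protein of adipocytes and capillary endothelium, was at 0.73 (SE 0.33), and knockout replicate 3, at 224 CPM, was below vehicle replicate 1, at 274 CPM. Without knockout replicate 2 the estimate of Fabp4 was 0.25. Angptl4, a secreted inhibitor of lipoprotein lipase and a known PPAR target, was barely expressed, at 1.23 to 3.47 CPM. Its estimate was 0.01 (SE 0.40), with a 95% interval of -0.89 to 0.90, and its sign changed with DESeq2's scaling.

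The genes of lipolysis and the lipid droplet did not all look alike. Lipe, the hormone-sensitive lipase, read 24.1, 33.1 and 23.6 CPM in knockout and 20.3, 16.5 and 9.60 CPM in vehicle libraries. The groups did not overlap, and the estimate was 0.80 (SE 0.27; edgeR adjusted p = 0.628). Plin5, a droplet coat protein of oxidative tissues that tethers droplets to mitochondria, had the highest estimate of the 39 genes at 1.20 (SE 0.46; adjusted p = 0.645). Its libraries read 33.0, 104 and 52.0 CPM in knockout and 42.2, 18.4 and 21.9 CPM in vehicle. Knockout replicate 1 lay below vehicle replicate 1, and without knockout replicate 2 the estimate was 0.63. Pnpla2, the adipose triglyceride lipase that starts triglyceride breakdown, read 221, 277 and 179.6 CPM in knockout and 268, 149 and 149 CPM in vehicle, for an estimate of 0.26 (SE 0.27). Among the 3 droplet genes only Lipe separated the groups.

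**Figure D2:**
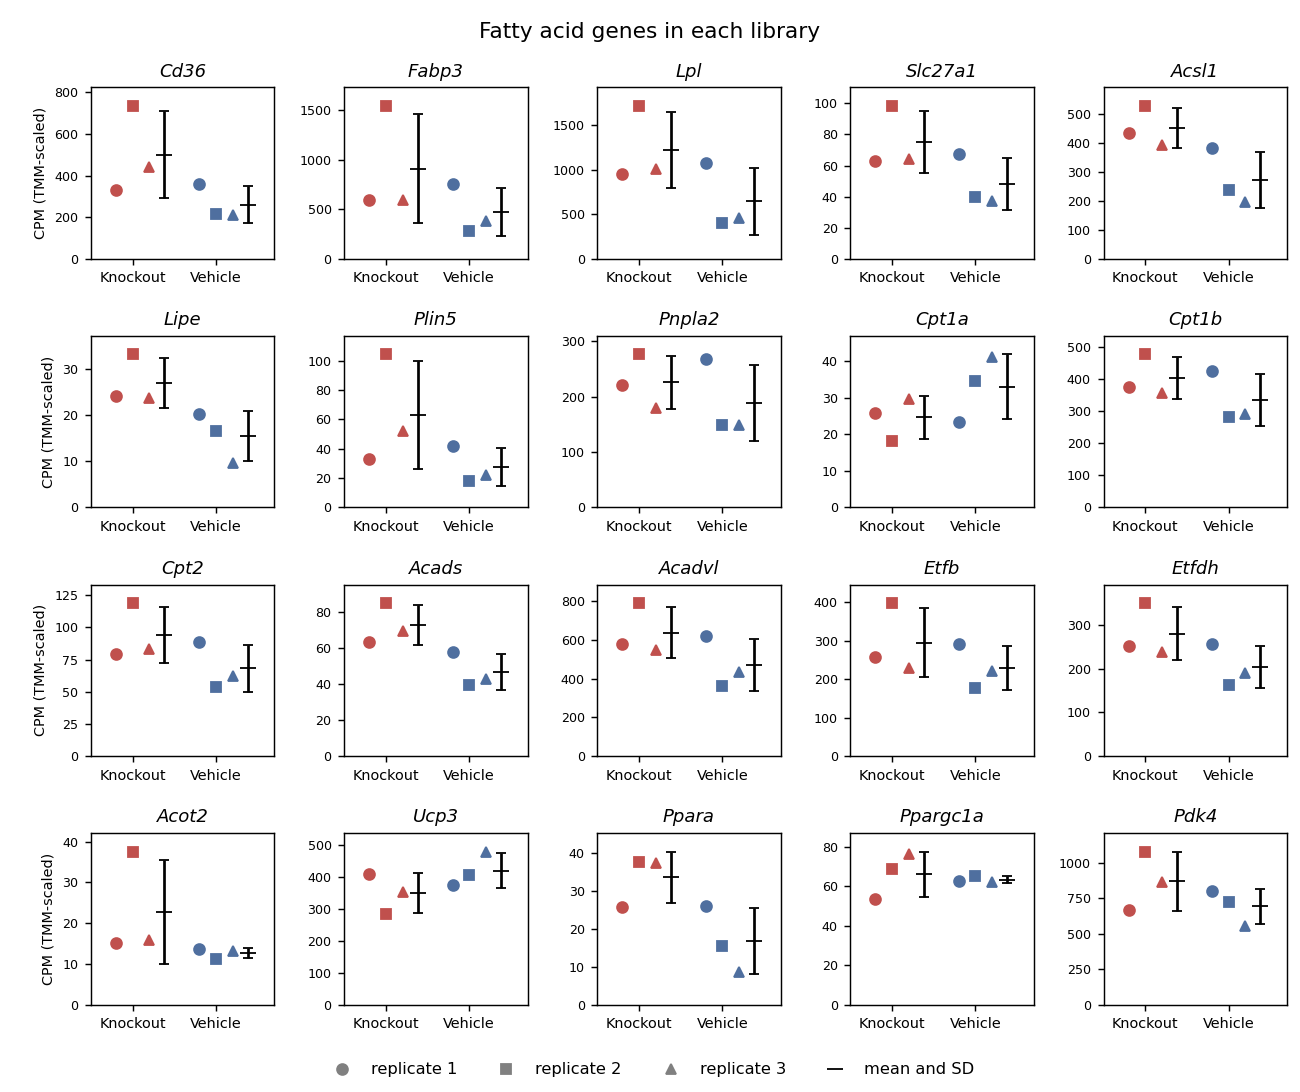
CPM of 20 fatty acid genes in each library, 1 panel per gene with the axis from 0; points are libraries (shape gives the replicate name), and the bar beside each group is the mean with its SD (n = 3). Lipe, Acsl1, Acads and Acot2 are the panels in which no vehicle point reaches a knockout point, while in Cd36 vehicle replicate 1, at 361 CPM, lies above knockout replicate 1, at 329 CPM.

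The carnitine shuttle had estimates in both directions. Of 7 genes, 5 were above 0, where 52.9% of all genes were, with a median of 0.27. At an unadjusted p below 0.05 there were 0, against 4.02% of all genes higher and 3.42% lower, so this count is near the background. Cpt1b, the muscle carnitine palmitoyltransferase that commits acyl-CoA to mitochondrial entry, read 376, 477 and 357 CPM in knockout and 426, 283 and 292 CPM in vehicle libraries. The estimate was 0.27 (SE 0.23, 95% interval -0.25 to 0.79). Cpt1a, the form that predominates in liver, ran the other way, at 25.9, 18.3 and 29.7 CPM in knockout and 23.4, 34.5 and 41.1 CPM in vehicle libraries. It was lowest in knockout replicate 2 and highest in vehicle replicate 3, and its estimate was -0.42 (SE 0.25; edgeR adjusted p = 0.733). Cpt1a made up 5.13%, 2.92% and 6.14% of the summed Cpt1a and Cpt1b FPKM in knockout libraries and 4.13%, 8.73% and 9.93% in vehicle libraries. The difference was within the spread (exact permutation test, two-sided p = 0.3, where 0.1 is the smallest p that 3 against 3 allows).

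Cpt2, the inner-membrane partner of Cpt1b, read 79.5, 119 and 83.2 CPM in knockout and 88.9, 53.8 and 62.4 CPM in vehicle, for an estimate of 0.46 (SE 0.24). Slc25a20, the carnitine-acylcarnitine carrier, was at 0.40 (SE 0.24). The genes that set malonyl-CoA, the inhibitor of Cpt1, had estimates close to each other: Acacb, which makes it, was at 0.27 (SE 0.25) and Mlycd, which removes it, at 0.29 (SE 0.24). Without knockout replicate 2 the estimate was 0.11 for Slc25a20 and -0.02 for Mlycd. Crat, the carnitine acetyltransferase, varied least of the 39 genes, at 412 to 500.3 CPM over the 6 libraries, and its estimate was -0.0008 (SE 0.19, 95% interval -0.44 to 0.43).

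The enzymes of the beta-oxidation spiral itself varied together. All 12 enzymes had estimates above 0, from 0.29 (Acadm) to 0.64 (Acads), with standard errors of 0.20 to 0.34. In all 12, knockout replicate 2 was the highest library and vehicle replicate 2 the lowest, with 1.89-fold to 3.37-fold between them. Without knockout replicate 2 the 12 estimates ran from 0.02 (Eci1) to 0.51 (Acads), with Acadm at 0.05 and Echs1 at 0.11. Acads, the short-chain acyl-CoA dehydrogenase (ENSMUSG00000029545, chromosome 5, 115110299 to 115119346 in mm10), had the smallest p of the 39 genes. It read 63.4, 85.0 and 69.6 CPM in knockout and 57.9, 39.4 and 42.8 CPM in vehicle libraries. The groups did not overlap, with means of 72.6 ± 11.1 and 46.7 ± 9.83 CPM (SD, n = 3 each). Its estimate was 0.64 (SE 0.20, 95% interval 0.20 to 1.08), with an unadjusted p of 0.0095 that ranked 239 among all genes and an edgeR adjusted p of 0.611. Leaving out any library kept the estimate between 0.51 and 0.82.

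The other acyl-CoA dehydrogenases, which take fatty acids of successively greater chain length, did not separate the groups. Acadvl, the most abundant of the spiral, read 577, 791 and 546 CPM in knockout and 619, 362 and 432 CPM in vehicle, for an estimate of 0.44 (SE 0.26). Vehicle replicate 1 exceeded 2 of the 3 knockout libraries. Acadl, the long-chain enzyme, was at 0.53 (SE 0.29) and Acadm, the medium-chain enzyme, at 0.29 (SE 0.28). Within the summed FPKM of the 4 dehydrogenases, Acadm took 29.8%, 29.4% and 28.1% in knockout and 32.1%, 32.4% and 31.9% in vehicle libraries. These shares did not overlap, although the CPM of Acadm did, and vehicle replicate 1 sat with its own group. The exact permutation p was 0.1, the smallest the design allows, and 0.375 after adjustment over the 5 shares computed. For Acads the share was 4.88% ± 0.566 with knockout and 4.22% ± 0.418 with vehicle (SD, n = 3 each; exact permutation p = 0.2).

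Hadha and Hadhb encode the alpha and beta subunits of the mitochondrial trifunctional protein, which carries out the later reactions on long chains, and lie head to head on chromosome 5. Hadha spans 30118301 to 30155162 on the minus strand and Hadhb 30155248 to 30184593 on the plus strand in mm10. The 85 bases between them are shown because they are upstream sequence common to both subunits.
Hadha to Hadhb, chr5:30155163-30155247, plus strand: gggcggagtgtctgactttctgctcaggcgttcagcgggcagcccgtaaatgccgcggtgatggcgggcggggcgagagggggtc
Hadha read 589, 753 and 563 CPM in knockout and 639.7, 377 and 430.4 CPM in vehicle libraries. Hadhb read 515, 804 and 494 CPM and 545, 357 and 421 CPM. The 6 libraries fell in the same order for both genes, and the estimates were 0.40 (SE 0.25) and 0.45 (SE 0.26). Of the matrix enzymes for shorter chains, Echs1, the enoyl-CoA hydratase, was at 0.47 (SE 0.28), Hadh, the hydroxyacyl-CoA dehydrogenase, at 0.46 (SE 0.28) and Acaa2, the thiolase, at 0.63 (SE 0.34). The auxiliary enzymes for unsaturated fatty acids were at 0.38 (SE 0.28) for Eci1, 0.38 (SE 0.21) for Eci2 and 0.44 (SE 0.22) for Decr1. Eci2 did not overlap between groups, at 79.3, 126 and 83.0 CPM in knockout and 75.8, 66.5 and 78.4 CPM in vehicle libraries, but its lowest knockout library was close to its highest vehicle library.

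Electrons from the dehydrogenases pass to the flavoprotein encoded by Etfa and Etfb and on to the ubiquinone oxidoreductase Etfdh. All 3 had estimates above 0. At an unadjusted p below 0.05 there were 0, against 4.02% of all genes higher and 3.42% lower, so this count is near the background. Etfb read 258, 398 and 229 CPM in knockout and 290.2, 176 and 221 CPM in vehicle, with an estimate of 0.36 (SE 0.27). Etfdh read 252, 350.2 and 238 CPM in knockout and 257, 164 and 190.4 CPM in vehicle libraries, at 0.46 (SE 0.24). Etfa was at 0.36 (SE 0.24). In each, vehicle replicate 1 exceeded both knockout replicates 1 and 3. Without knockout replicate 2 the estimates were 0.09 for Etfb, 0.13 for Etfa and 0.27 for Etfdh.

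**Figure D3:**
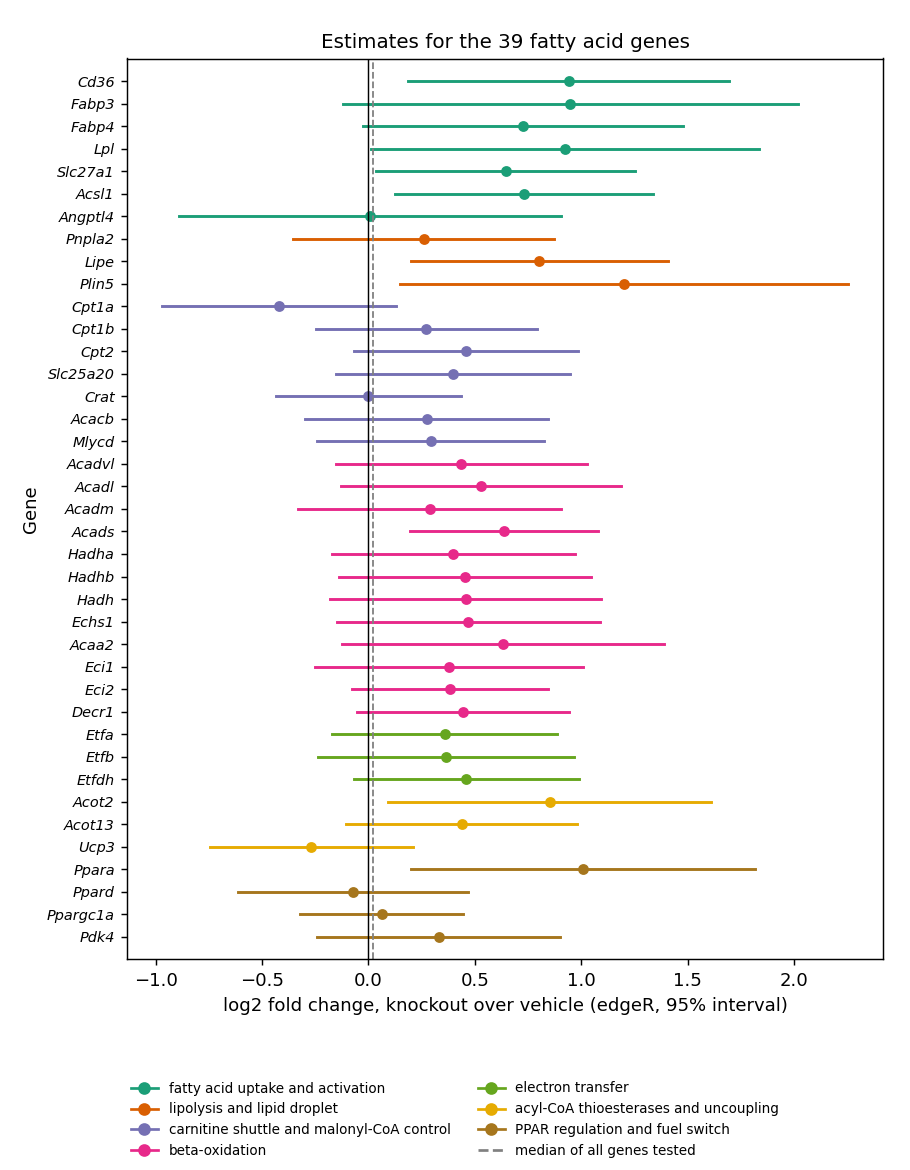
Log2 fold change of each of the 39 genes, knockout over vehicle, with its 95% interval from edgeR, coloured by step; the dashed line is the median of all genes tested, 0.02. Intervals of 9 genes lie wholly above 0 before adjustment, the estimates of the beta-oxidation genes lie between 0.29 and 0.64, and Cpt1a and Ucp3 lie below 0 with intervals that cross it.

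Thioesterases release free fatty acids from acyl-CoA, and Ucp3 is a muscle uncoupling protein whose transcript is known to rise in fasting. Acot2, the mitochondrial long-chain thioesterase, read 15.1, 37.6 and 15.9 CPM in knockout and 13.6, 11.2 and 13.1 CPM in vehicle libraries. The groups did not overlap, but knockout replicate 2 stood far above the rest, and the estimate of 0.85 (SE 0.34; edgeR adjusted p = 0.645) was 0.29 without it. Acot2 has a close paralog, Acot1, with which reads may be shared. Acot13 read 112, 177 and 99.95 CPM in knockout and 99.7, 77.9 and 109.6 CPM in vehicle libraries, at 0.44 (SE 0.24). Ucp3 was highest in vehicle replicate 3, at 481 CPM, and lowest in knockout replicate 2, at 285 CPM. Its estimate was -0.27 (SE 0.21), and stayed negative whichever library was dropped.

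Among the regulators the estimates ran from -0.07 to 1.01. Ppara, the fatty-acid-sensing receptor, read 25.6, 37.5 and 37.2 CPM in knockout and 25.9, 15.3 and 8.69 CPM in vehicle libraries. Knockout replicates 2 and 3 were high and vehicle replicate 3 low, while knockout replicate 1 and vehicle replicate 1 were nearly equal. The estimate was 1.01 (SE 0.36, 95% interval 0.20 to 1.82; edgeR adjusted p = 0.640), and it stayed between 0.70 and 1.48 when libraries were left out. Ppard, the isoform known to act in oxidative muscle, read 18.3, 16.0 and 26.0 CPM in knockout and 17.6, 18.2 and 27.6 CPM in vehicle libraries, at -0.07 (SE 0.24). Ppargc1a, the coactivator PGC-1alpha, read 53.6, 68.6 and 76.0 CPM in knockout and 62.3, 65.3 and 62.3 CPM in vehicle libraries, at 0.06 with a 95% interval of -0.32 to 0.44. Each of these 2 estimates changed sign when some single library was dropped. Pdk4, which turns off pyruvate dehydrogenase when fatty acids are burned, read 666, 1079.9 and 866 CPM in knockout and 801, 724 and 554 CPM in vehicle libraries, at 0.33 (SE 0.25).

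Fibre-type transcripts moved with these genes across the libraries. The slow-twitch marker list (12 genes, 12 of 12 estimates higher, median 1.86) summed to 6480 to 33690 CPM in knockout and 1360 to 10538 CPM in vehicle libraries. Its mean, centred on the 6 libraries, was 0.07, 2.36 and 0.72 on the log2 scale for the knockout libraries and 0.76, -1.82 and -2.09 for the vehicle libraries. For the 39 fatty acid genes the same means were 0.04, 0.58 and 0.04 for knockout and 0.12, -0.45 and -0.34 for vehicle. Vehicle replicate 1 was above both other vehicle libraries in both measures, and knockout replicate 2 above all others. Slow myosin Myh7 ran from 129 CPM in vehicle replicate 3 to 5568 CPM in knockout replicate 2, and the slow troponin Tnni1 from 56.9 CPM in vehicle replicate 3 to 1915 CPM in knockout replicate 2. The fast IIb list was lower in estimate in 10 of 10 genes, with a median of -0.43, and the fast myosin Myh4 was 9960 CPM in knockout replicate 2 against 35320 CPM or more in the other libraries. With the slow-twitch mean as a covariate beside the group, the median estimate of the fatty acid genes was 8.52e-05, 20 of 39 were above 0 and 0 were at an unadjusted p below 0.05, against 1.75% of all genes. In that fit Ppara was at 0.38 (SE 0.31), Lipe at 0.32 (SE 0.28) and Acads at 0.27 (SE 0.19). The slow-twitch markers were themselves higher in estimate in knockout, in 12 of 12 genes, so this fit cannot part fibre content from group. The part of fibre content in the estimates was not tested.

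Other cells of whole muscle also express part of the pathway. In bulk RNA, fewer cells of a type and less RNA per cell cannot be told apart. In the adipocyte list 8 of 9 passed the filter, with a median of 1.33. In estimate 8 of 8 were higher, where 52.9% of all genes tested were. At an unadjusted p below 0.05 were 6, where 4.02% of all genes were higher at that limit. The list summed to 58.6 to 219 CPM in knockout and 26.5 to 71.7 CPM in vehicle libraries. Its centred mean was 0.92, 1.28 and -0.39 in knockout and -0.13, -0.31 and -1.37 in vehicle libraries. Knockout replicate 3 thus lay below vehicle replicates 1 and 2. Adipoq was at 19.2, 26.7 and 7.77 CPM in knockout and 8.58, 10.4 and 4.17 CPM in vehicle, and Plin1 at 1.28 to 6.63 CPM. The part of adipocyte content in Lipe, Fabp4, Lpl, Cd36 and Pnpla2, all known adipocyte genes, was not tested. The capillary endothelium list had 6 of 9 higher estimates, with sums of 362 to 446 CPM in knockout and 331 to 418 CPM in vehicle libraries, a median of 0.13, and Pecam1 at -0.01 (SE 0.16). Its exception was Cldn5, a tight junction gene, at -0.91 (SE 0.20), which DESeq2 called, where it called 0.699% of all genes. Macrophage markers were higher in estimate in 8 of 8 genes, where 52.9% of all genes were, with a median of 1.25. Of these markers 7 were at an unadjusted p below 0.05, where 4.02% of all genes were higher at that limit. The macrophage sums were 45.8 to 138 CPM in knockout and 36.4 to 65.1 CPM in vehicle libraries. Adgre1 was at 0.522 to 4.30 CPM. The macrophage centred mean was -0.62, 0.99 and 1.13 in knockout and 0.01, -0.51 and -0.996 in vehicle libraries. Knockout replicate 1 thus lay below vehicle replicates 1 and 2, and only knockout replicates 2 and 3 were above all vehicle libraries. No marker was at 0 in all libraries. The blood list, in which 2 of 5 were higher, was highest in knockout replicate 2 and vehicle replicate 2. Their part in the results was not tested.

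**Figure D4:**
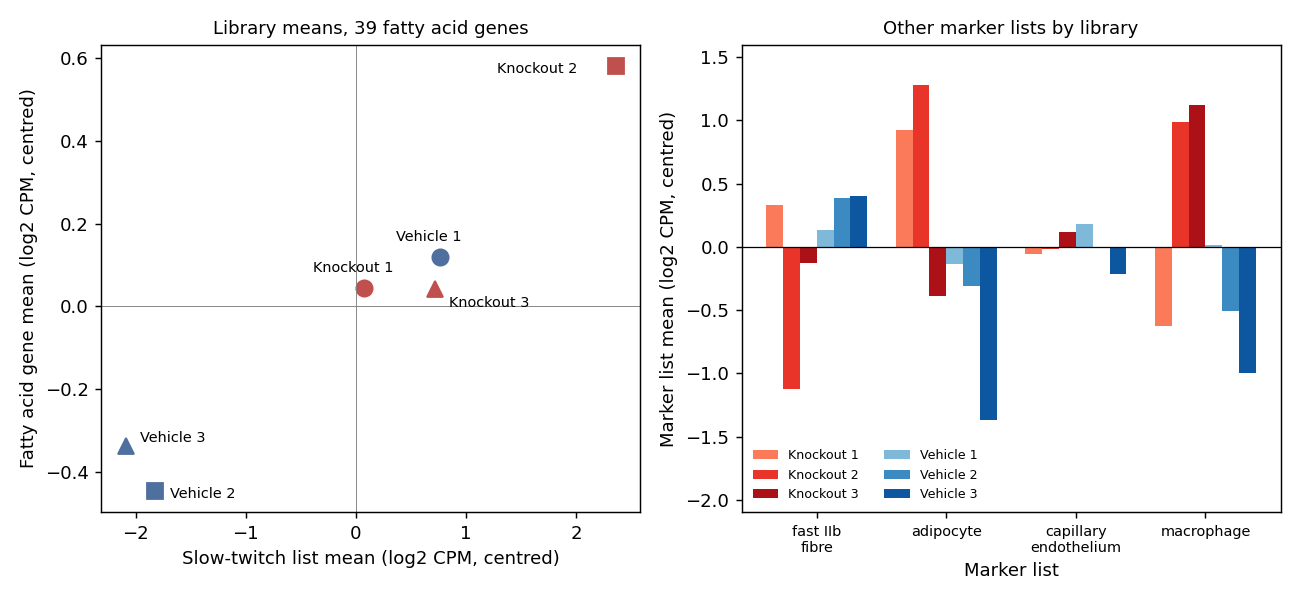
Left, mean of the 39 fatty acid genes against mean of the slow-twitch markers in each library, both as log2 CPM centred over the 6 libraries; right, the same centred mean for 4 other marker lists (bars, 1 per library). Knockout replicate 2 lies at 2.36 and 0.58 on the left. Vehicle replicate 1, at 0.76 and 0.12, lies above knockout replicates 1 and 3 on both axes. The endothelial bars on the right stay within -0.22 and 0.18.

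Beyond the 39 genes, 72 further genes of fatty acid handling were examined as a list, of which 71 passed the low-count filter. In this list 53 had a higher estimate and 18 a lower one, where 52.9% of all genes tested were higher, and the median was 0.24. In edgeR 0 passed the adjusted threshold. At an unadjusted p below 0.05 there were 8 higher, where 4.02% of all genes were, and 3 lower, where 3.42% were, so the lower count is near the background. DESeq2 called 1, Hilpda, where it called 0.699% of all genes. Peroxisomal oxidation had 15 of 17 estimates above 0 with a median of 0.33, and mitochondrial and transport genes 16 of 22 with a median of 0.17. Uptake, activation and droplet genes had 11 of 16 tested above 0 with a median of 0.26, and regulators 11 of 16 with a median of 0.14.

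The droplet genes outside the 39 went in both directions. Hilpda, a hypoxia-inducible droplet protein that inhibits adipose triglyceride lipase, read 4.13, 6.39 and 8.31 CPM in knockout and 10.7, 12.7 and 28.7 CPM in vehicle libraries, without overlap. Its estimate was -1.47 (SE 0.40), with an adjusted p of 0.565 in edgeR and 0.029 in DESeq2. Plin3, another droplet coat protein, read 51.0, 75.9 and 45.9 CPM in knockout and 40.0, 21.6 and 24.6 CPM in vehicle libraries, at 1.00 (SE 0.27; edgeR adjusted p = 0.553). G0s2, also an inhibitor of that lipase, was at 1.61 (SE 0.58) and was dominated by knockout replicate 2, at 84.9 CPM against 10.1 to 32.4 CPM elsewhere. Vldlr, a receptor for triglyceride-rich lipoproteins, did not overlap between groups and was at -0.57 (SE 0.22), and Acsl5, an acyl-CoA synthetase, was at 0.55 (SE 0.22).

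Among enzymes and regulators outside the 39, the thioesterase Acot11 was at 0.84 (SE 0.27), the peroxisomal Nudt7, which hydrolyses coenzyme A, at 0.95 (SE 0.33) and the peroxisomal isomerase Eci3 at 0.91 (SE 0.36). Esrra, the estrogen-related receptor that partners PGC-1alpha, was at 0.55 (SE 0.22) and barely kept the groups apart, at 59.2, 77.9 and 58.6 CPM in knockout and 58.4, 37.1 and 38.4 CPM in vehicle libraries. Pdk1, a pyruvate dehydrogenase kinase, was at 0.64 (SE 0.28). Rxrg, the retinoid receptor of fast muscle that pairs with both PPAR and the vitamin D receptor, was at -0.70 (SE 0.25), with vehicle replicate 3 highest at 112 CPM and knockout replicate 2 lowest at 39.1 CPM. None of these passed the adjusted threshold in either edgeR or DESeq2.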

How the data were processed

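RNA sequencing (TruSeq Stranded mRNA, per the labels' protocols) covered 3 knockout and 3 vehicle gastrocnemius libraries, grouped by the recorded phenotype. The deposited table gives raw read counts per gene and library. The tools and build that the submitters' processing notes name are mm10, STAR 2.6.1c, Subread 1.5.1 with featureCounts, and bcl2fastq. Neither the strand setting nor the annotation release is given in the sources used here. The FPKM values in the deposited table equal the count over the library total and the gene length plus 1 base. They thus carry no further normalization, and were used to compare levels between genes. They also gave the shares within a step that were compared between groups. All 37 mitochondrially encoded genes are at 0. By GENCODE M21, exons of 9 members (Fabp3, Acsl1, Lipe, Crat, Acadvl, Hadha, Echs1, Eci2 and Etfdh) overlap a gene on the other strand and those of Cpt1b and Etfb a gene on the same strand, so their counts are less certain. The marker Adgre1 was matched by gene ID.

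The count test was edgeR 4.0.16 under R 4.3.3, with filterByExpr (minimum count 10, minimum total 15), TMM factors, a robust quasi-likelihood fit over 15583 genes, two-sided, Benjamini-Hochberg, threshold 0.05. Standard errors derive from the F statistic. A count of 3 equals 0.0783 to 0.0929 CPM. Centred means use log2 CPM with prior count 2. The procedure was tested on simulated data. Alternatives were DESeq2 size factors, the DESeq2 1.42.0 Wald test, no low-count filter, each library left out, and the slow-twitch mean as a covariate. Members and lists were chosen with earlier results of these data known. Values in every library were given for the most abundant and smallest-p member of each step, members at an unadjusted p below 0.05 and the regulators; Cpt1a, Hadha, Hadhb and Eci2 were added outside that rule after their values were seen, as were Ckm, Acta1 and Cldn5 among the markers. Of the 72 other pathway genes, those at an unadjusted p below 0.05 were named.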

Additional observations from a re-analysis of the deposited data

How the results depend on the processing

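No member passed the adjusted threshold under any alternative run, and all 39 were tested in each. The number with a higher estimate was 34 to 36 and the median log2 fold change 0.24 to 0.63 when single libraries were left out, and 34 and 0.42 under DESeq2 size factors, the DESeq2 Wald test and no low-count filter. The number at an unadjusted p below 0.05 was 2 to 20 with libraries left out, where 3.69% to 12.1% of all genes were. With the slow-twitch mean as a covariate it was 0, against 1.75% of all genes. In that fit the number with a higher estimate was 20, where 51.0% of all genes were higher, and the median was 8.52e-05. Apart from that covariate, 34 of the 39 genes kept the sign of their estimate in every alternative. Angptl4 turned to -0.0050 under DESeq2 size factors, to -0.0048 with the DESeq2 Wald test and to -0.0069 without the low-count filter, with a range of -0.25 to 0.35 over single libraries left out. That range was -0.078 to 0.062 for Crat, -0.018 to 0.43 for Mlycd, -0.30 to 0.17 for Ppard and -0.053 to 0.19 for Ppargc1a. The cause was not tested. Over all genes, 0 were called in the main analysis, where 1159 were at an unadjusted p below 0.05. The count was 4 with DESeq2 size factors, 109 with the DESeq2 Wald test, 29 without the filter and 0 to 24 with single libraries left out. No paired analysis was possible because the labels give no number shared between the groups. Standard errors of the 39 estimates were 0.17 to 0.47 on the log2 scale. Angptl4, at 1.23 to 3.47 CPM, had the fewest counts behind its value.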
